A study of Mus musculus with 75 samples.

Results

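10 genes of bone morphogenetic protein (BMP) signaling were followed in whole lung of BLEO-IPF mice, the bleomycin model of idiopathic pulmonary fibrosis. The genes were taken by symbol from the deposited count table, which lists 55536 genes, and all 10 passed the filter on low counts that left 16221 genes for testing. They comprise the ligands Bmp4 and Bmp6, the receptors Bmpr2, Bmpr1a and Acvrl1, the inhibitory SMAD Smad6, the target genes Id1 and Id3, and the secreted antagonist or modulator genes Grem1 and Bmper. The rule used symbols and no measured values, but the genes were chosen with earlier results of these data known.

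BMP ligands bind a pair of type I and type II serine/threonine kinase receptors on the cell surface, which phosphorylate SMAD transcription factors, and these enter the nucleus with SMAD4 and switch on targets such as the ID genes. Signaling is held back outside the cell by secreted proteins that capture the ligands, and inside the cell by inhibitory SMADs that are themselves targets. In the lung the pathway is best known from the vascular endothelium, where inherited loss of BMPR2 or ACVRL1 underlies familial pulmonary hypertension and hereditary hemorrhagic telangiectasia, and from the developing airway epithelium.

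RNA was taken from the inferior lobe of 75 male C57BL6/JRJ mice that were 12 to 14 weeks old at dosing, with 1 library per mouse. The BLEO-IPF mice had received 1 intratracheal dose of bleomycin sulphate and were killed at weekly steps from day 7 to day 42 after it. There were 10 mice on day 7, 7 on day 42 and 12 on each day between. Only mice that had lost between 5% and 17% of body weight by day 6 were assigned to these groups. The 10 control mice (CTRL) are called saline in the sample names and untreated in the protocol, and which of these applies cannot be told from the labels. All 6 comparisons with CTRL share these 10 mice.

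Libraries held between 9240291 and 14665247 counts, with a median of 10677163. Levels are given as CPM, the counts of a library scaled to a common total with TMM factors, and changes as log2FC from the edgeR quasi-likelihood test with p-values adjusted over all genes tested. The surfactant and other markers of AT2 cells, the alveolar type 2 epithelium, summed to between 23550 and 28883 CPM in CTRL, and no gene of the 10 marker lists was at 0 in every mouse of any group. Markers of cardiac muscle summed to 630, 1576 and 801 CPM in day 28 mice 8, 10 and 11, against at most 276 CPM in CTRL. Without these 3 mice, 2 of the 10 genes were still higher and 4 lower on day 28.

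Of the 10 genes, 1 was significantly upregulated and 4 were significantly downregulated on day 7, when 24.8% of all genes tested were higher and 21% lower. On day 14 the counts were 2 and 4, against 32.4% and 29.9% of all genes. On day 21 they were 2 and 5, against 28.3% and 25.8%. Day 28 again gave 2 and 4, against 24.1% and 19.2%, and day 35 gave 1 and 4, against 16.9% and 13.1%. By day 42 the counts were 1 and 3, against 13.7% and 11% of all genes. Acvrl1, Bmpr2 and Smad6 were downregulated on all 6 days, a pattern seen in 5.31% of all genes tested. None of the 10 was upregulated on all 6 days, a pattern of 8.33% of all genes, by the edgeR test; at an unadjusted p under 0.05, and by DESeq2, the count was 1, namely Grem1. Bmp4, Id1 and Id3 passed on none of the 6 days by edgeR, DESeq2 also left 3 genes with no call, and at an unadjusted p under 0.05 Bmp4 and Id1 each passed on 1 day and Id3 on 0. The median log2FC of the 10 genes on day 14 was -0.12, against 0.01 for all genes tested.

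**Figure D1:**
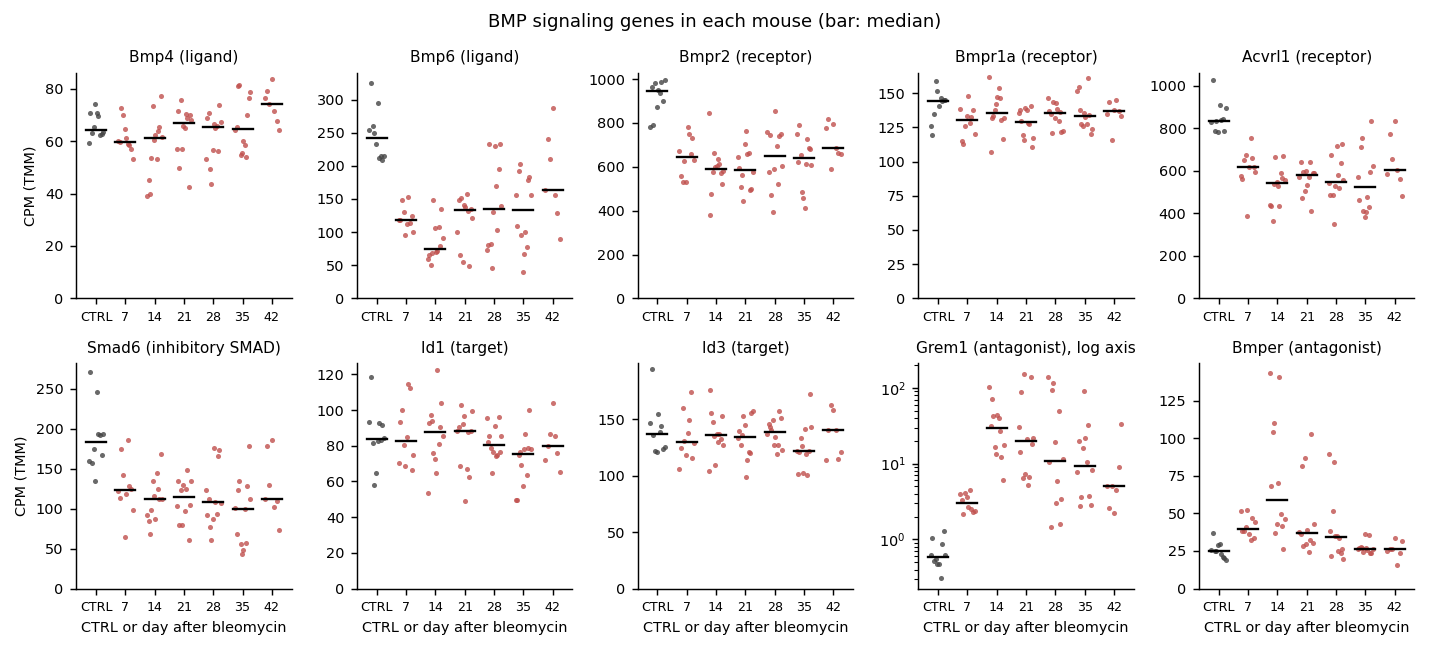
CPM (vertical axis; log scale for Grem1, from 0 for the others) of each of the 10 genes in every mouse, by CTRL or day after bleomycin, with a bar at the median. Grem1 lies above all CTRL mice on every day, Acvrl1 lies below all CTRL mice from day 7 to day 28, and Id1 and Id3 overlap with CTRL throughout.

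The regions before the starts of Grem1, Bmper and Smad6 are shown because these genes carry the changes outside and inside the cell described below, and because their windows overlap no annotated exon. RefSeq promoter entries of build GRCm38.p6 were matched for 8 of the 10 genes, all but Id1 and Acvrl1. Each window is the 250 bases before the start, printed 5′ to 3′ on the strand of the gene, and capitals mark the letters GGCGCC, a GC-rich element of many BMP-responsive genes. The Grem1 window is chr2:113758649-113758898 on the minus strand, the Bmper window chr9:23222826-23223075 on the plus strand, and the Smad6 window chr9:64022060-64022309 on the minus strand.
Grem1: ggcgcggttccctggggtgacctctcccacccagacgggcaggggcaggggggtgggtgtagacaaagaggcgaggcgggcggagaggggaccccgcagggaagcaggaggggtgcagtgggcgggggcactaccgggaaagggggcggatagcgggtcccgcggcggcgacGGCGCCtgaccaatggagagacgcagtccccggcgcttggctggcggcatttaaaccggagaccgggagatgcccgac
Bmper: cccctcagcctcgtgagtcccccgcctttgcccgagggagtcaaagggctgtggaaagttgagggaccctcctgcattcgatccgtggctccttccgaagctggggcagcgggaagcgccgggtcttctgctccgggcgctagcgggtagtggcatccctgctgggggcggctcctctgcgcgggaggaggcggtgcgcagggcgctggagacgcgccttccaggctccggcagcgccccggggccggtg
Smad6: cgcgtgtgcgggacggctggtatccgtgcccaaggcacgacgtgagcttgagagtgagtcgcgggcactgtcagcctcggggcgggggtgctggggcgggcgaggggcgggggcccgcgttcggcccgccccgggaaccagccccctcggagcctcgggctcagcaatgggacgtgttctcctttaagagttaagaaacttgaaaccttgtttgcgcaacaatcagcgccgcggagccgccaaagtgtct

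Searched on both strands, GGCGCC was present in 3 of the 8 windows, those of Bmpr2, Grem1 and Bmpr1a, and in 9.59% of all 32851 promoters of the same length. In Grem1 it starts 78 bases before the transcript start, at -78, and 72% of the window is G or C. The longer pattern of GGCGCC followed after 5 bases by GTCT was in 0 of the 8 and in 0.07% of all promoters. The letters GTCTG were in 3 of the 8, those of Grem1, Id3 and Bmp6, and in 42.2% of all promoters. The windows of Bmpr2, Id3 and Bmp6 lie wholly in annotated exons, as do 141 bases of the Bmpr1a window. The shares of all promoters were not matched for G and C content. These matches describe the letters in the windows only.

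Among the ligands, Bmp6 was significantly lower on 5 of the 6 days and Bmp4 on none. Bmp6 (ENSMUSG00000039004; GRCm38 chromosome 13, 38345107 to 38500302, plus strand) encodes a ligand that endothelial cells make and that is best known for setting hepcidin expression and so iron balance. Its level lay between 208 and 325 CPM in CTRL (median 241) and between 96.2 and 153 CPM on day 7 (median 119). It lay between 50.3 and 149 CPM on day 14 (median 75.0), between 48.6 and 157 on day 21 (median 133) and between 46.02 and 233 on day 28 (median 135). It lay between 39.2 and 203 CPM on day 35 (median 133) and between 89.8 and 287 on day 42 (median 163). Every mouse on days 7, 14, 21 and 35 was below every CTRL mouse, while 3 mice on day 28 and 3 on day 42 reached into the CTRL range.

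The log2FC of Bmp6 was -1.49 ± 0.23 (SE; adjusted p = 5.23e-08) on day 14, a fall to 0.357 of the CTRL level. It was -1.02 (day 7), -1.09 (day 21), -0.79 (day 28) and -0.93 (day 35), with adjusted p-values between 3.63e-05 and 0.00307. On day 42 it was -0.44 ± 0.26 with an adjusted p of 0.216, and the 95% interval ran from -0.96 to 0.08. Day 42 was higher than day 14 by 1.05 ± 0.24 on the log2 scale (adjusted p = 0.000591), in a comparison in which 15.2% of all genes tested were higher and 18.8% lower. Exons of Bmp6 overlap those of Txndc5 on the opposite strand by 224 bases, and Txndc5 carried 168% as many counts, so that without a stated use of strand in counting the level of Bmp6 is uncertain.

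Bmp4 (ENSMUSG00000021835; chromosome 14, 46383520 to 46390669, minus strand), a ligand that acts in lung branching, varied little between groups. It lay between 59.1 and 74.2 CPM in CTRL (median 64.4), between 39.3 and 77.3 on day 14 (median 61.1) and between 64.5 and 83.7 on day 42 (median 74.4). On day 14, 5 of 12 mice were below all CTRL mice and 1 was above them, and on day 42, 4 of 7 were above. Against CTRL the log2FC ranged from -0.19 (day 14; adjusted p = 0.0637) to 0.16 (day 42; adjusted p = 0.268). The day 14 difference had an unadjusted p of 0.0408, and it passed the threshold with library size as the only scaling (adjusted p = 0.0446), with upper quartile factors (0.0387) and on leaving out day 14 mouse 5, 10 or 11. Between day 14 and day 42 Bmp4 was higher on day 42 by 0.35 ± 0.10 on the log2 scale (adjusted p = 0.00486).

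Summed markers of the alveolar epithelium had lower medians on day 14 than on day 42, with ranges that overlapped, as both ligands did. These sums were not tested between the days. The 6 AT2 markers summed to between 8683 and 27960 CPM on day 14 (median 16716), when 4 were lower than in CTRL, and to between 27281 and 34375 CPM on day 42 (median 31487), when 1 was higher. The 6 markers of AT1 cells, the flat gas-exchange epithelium, summed to between 4434 and 5720 CPM in CTRL, between 2686 and 4690 on day 14 with 3 lower and 1 higher, and between 4633 and 5494 on day 42 with 1 higher. The AT2 list includes Lyz2, which macrophages express too, and the AT1 list includes Cav1, which endothelial cells express too. The sums are therefore not of the alveolar epithelium alone. The part of AT1 and AT2 cells in the levels of Bmp4 and Bmp6 was not tested.

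Of the 3 receptors, Acvrl1 and Bmpr2 were significantly downregulated on every day and Bmpr1a on day 21. Acvrl1 (ENSMUSG00000000530; chromosome 15, 101128522 to 101145336, plus strand) encodes ALK1, the type I receptor of endothelial cells for circulating BMP ligands. Its level lay between 781 and 1025 CPM in CTRL (median 836), between 388 and 756 on day 7 (median 618) and between 364 and 668 on day 14 (median 543). On day 21 it lay between 409 and 641 CPM (median 581), and on day 28 between 352 and 726 (median 549). On day 35 it lay between 383 and 833 CPM (median 524) and on day 42 between 484 and 833 (median 603). All mice from day 7 to day 28 were below all CTRL mice, and 1 mouse on day 35 and 1 on day 42 were not.

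Acvrl1 fell by 38.1% on day 14, with a log2FC of -0.69 ± 0.11 (adjusted p = 2.09e-07). The log2FC was -0.49 (day 7), -0.61 (day 21), -0.59 (day 28) and -0.62 (day 35), with adjusted p-values between 4.83e-06 and 0.000483. It was -0.41 ± 0.13 on day 42 (adjusted p = 0.0157), and -0.36 (adjusted p = 0.0528) without day 42 mouse 7. Day 42 was 0.28 ± 0.12 above day 14 on the log2 scale, with an adjusted p of 0.0653. This last difference passed the threshold with library size as the only scaling (adjusted p = 0.0437), with upper quartile factors (0.0465) and without day 14 mouse 5 or 11 or day 42 mouse 6 or 7.

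Bmpr2 (ENSMUSG00000067336; chromosome 1, 59763400 to 59879014, plus strand) encodes the type II receptor that pairs with the type I receptors. It lay between 783 and 996 CPM in CTRL (median 944), between 529 and 780 on day 7 (median 645) and between 379 and 847 on day 14 (median 590). On day 21 it lay between 442 and 763 CPM (median 586) and on day 28 between 395 and 856 (median 650). On day 35 it lay between 411 and 791 CPM (median 640) and on day 42 between 588 and 817 (median 687). No mouse of days 7 and 21 reached the CTRL range, 1 mouse did on each of days 14, 28 and 35, and 2 did on day 42.

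The log2FC of Bmpr2 was -0.64 ± 0.11 on day 14 (adjusted p = 3.53e-07), a decrease to 0.642 of the CTRL level, and -0.50, -0.63, -0.51 and -0.55 on days 7, 21, 28 and 35. On day 42 it was -0.36 ± 0.12 (adjusted p = 0.0228). Without day 42 mouse 3 the day 42 value was -0.32 with an adjusted p of 0.0645, and with no filter on low counts the adjusted p was 0.0581. Day 42 was 0.28 ± 0.12 above day 14 (adjusted p = 0.0579), and this passed with library size only (0.0306), with upper quartile factors (0.0323) and without day 14 mouse 1 or 5 or day 42 mouse 3.

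Bmpr1a (ENSMUSG00000021796; chromosome 14, 34410734 to 34503341, minus strand) encodes ALK3, a type I receptor of many cell types. It lay between 119 and 159 CPM in CTRL (median 145) and between 107 and 162 CPM over all BLEO-IPF mice, whose groups had medians from 129 to 137. All 6 days overlapped with CTRL. It was lower on day 21 by a log2FC of -0.14 ± 0.05 (adjusted p = 0.0271), which missed the threshold without day 21 mouse 11 (-0.12, adjusted p = 0.0578) and with no filter on low counts (adjusted p = 0.0725). On day 7 the log2FC was -0.13 with an adjusted p of 0.0586, and 0.048 by DESeq2, and the day 7 call came to pass on leaving out any 1 of 7 mice (CTRL mice 1, 2, 3 and 6 and day 7 mice 1, 6 and 9). On the other days the log2FC was between -0.08 and -0.05.

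**Figure D2:**
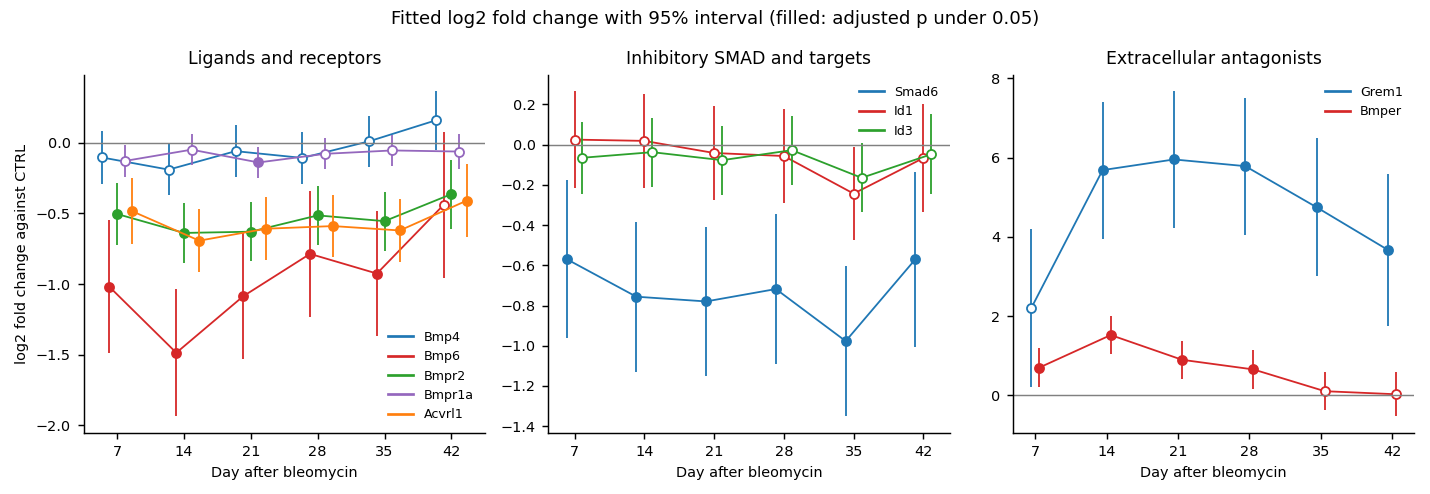
Fitted log2FC against CTRL (vertical axis) with its 95% interval by day after bleomycin, grouped by role, with filled points for an adjusted p under 0.05; the panels have different vertical scales. Bmpr2 and Acvrl1 run together between -0.36 and -0.69, Id1 and Id3 lie between -0.24 and 0.03, and Grem1 reaches 5.95 on day 21.

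Smad6, the inhibitory SMAD, was lower on every day. Smad6 (ENSMUSG00000036867; chromosome 9, 63953076 to 64022059, minus strand) encodes a SMAD that blocks signaling from the BMP type I receptors and is itself a BMP target. It lay between 134 and 270 CPM in CTRL (median 183), between 64.1 and 186 on day 7 (median 123) and between 67.96 and 169 on day 14 (median 111). On day 21 it lay between 60.9 and 149 CPM (median 114) and on day 28 between 61.2 and 176 (median 108). On day 35 it lay between 43.6 and 179 CPM (median 99.5) and on day 42 between 73.2 and 185 (median 112). Some mice of each day reached the CTRL range, and the number below all CTRL mice was 7 of 10, 10 of 12, 11 of 12, 9 of 12, 10 of 12 and 5 of 7 from day 7 to day 42.

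The log2FC of Smad6 was -0.57 on day 7 (adjusted p = 0.0138) and -0.76 ± 0.19 on day 14 (0.000362). It was -0.78 and -0.72 on the following 2 dates and -0.98 ± 0.19 on day 35 (3.34e-05). On day 42 it was -0.57 ± 0.22 with an adjusted p of 0.0468, close to the threshold. Leaving out any 1 of 11 of the 17 mice compared (CTRL mice 2, 4, 6, 7, 8 and 10 and day 42 mice 1, 3, 5, 6 and 7) took the day 42 value out of significance, up to an adjusted p of 0.128, with the log2FC of those 11 fits between -0.58 and -0.48. Day 42 and day 14 differed by 0.19 ± 0.21 on the log2 scale (adjusted p = 0.508; 95% interval -0.23 to 0.60).

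Markers of endothelial cells moved with these genes. The 15 endothelial markers, Pecam1, Cdh5, Kdr and Tek among them, summed to between 7311 and 8733 CPM in CTRL (median 7780) and to between 3799 and 6576 CPM on day 14 (median 5439). Of the 15, 13 were significantly lower on day 14 and 6 on day 42, with 9 or 10 at every other time. By day 42 the sum lay between 5589 and 7791 CPM (median 6320). In bulk tissue, fewer cells of a type and less RNA per cell cannot be told apart, and the part of the endothelial markers in the changes of Acvrl1, Bmpr2, Smad6 and Bmp6 was not tested.

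Relative to the endothelial sum, the members parted. Acvrl1 per 1000 CPM of endothelial markers lay between 99.4 and 117 in CTRL (median 108) and between 88.1 and 113 on day 14 (median 99.7), so that the groups overlapped, and its mean ratio on day 14 was 0.928 of that in CTRL. For Bmpr2 the day 14 mean ratio was 0.981 of CTRL, with day 14 mouse 1 the highest at 191. The median ratio of Bmpr2 was 117 in CTRL and 106 on day 14, and its day 21 mean ratio was 0.888 of CTRL. For Smad6 the day 14 mean ratio was 0.888 of CTRL, falling to 0.689 on day 35. For Bmp6 it was 0.525, with the ratio between 26.9 and 37.3 in CTRL and between 12.8 and 22.6 on day 14, without overlap. For the 4 members that did not pass against CTRL on day 14 the ratio was above that in CTRL, at 1.56 for Id1, 1.52 for Id3, 1.48 for Bmpr1a and 1.31 for Bmp4. The mean endothelial sum was 7889 CPM in CTRL and 5268 CPM on day 14, and a ratio to a lower sum is higher for any gene whose own level is the same, so these values are not particular to the ID genes. Id1 per 1000 endothelial CPM lay between 6.93 and 13.6 in CTRL and between 11.5 and 25.6 on day 14, so that the groups overlapped. These ratios were not tested, and Id1 and Id3 are expressed by many cell types besides endothelium.

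**Figure D3:**
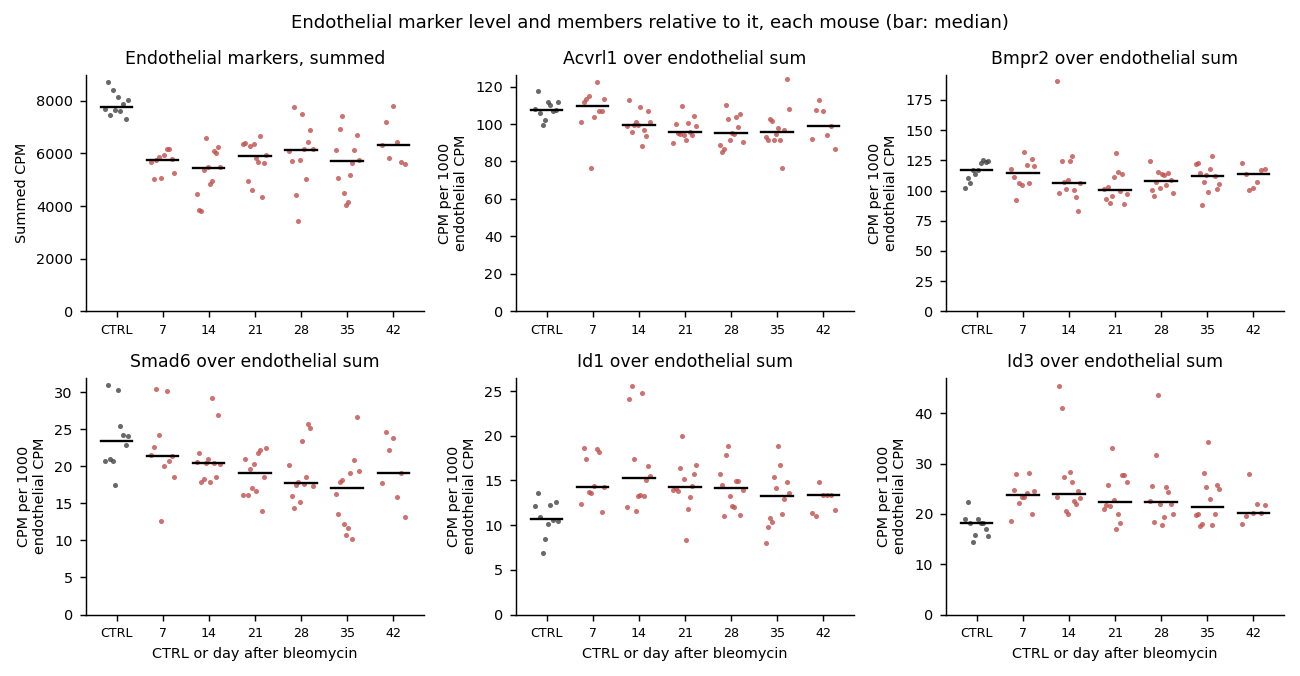
Summed CPM of the 15 endothelial markers (first panel) and the CPM of Acvrl1, Bmpr2, Smad6, Id1 and Id3 per 1000 CPM of that sum (other panels) in every mouse by CTRL or day after bleomycin, with a bar at the median. The median sum was 7780 CPM in CTRL and 5439 CPM on day 14, while the median ratio of Acvrl1 went from 108 to 99.7 and that of Id1 from 10.7 to 15.3.

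The target genes Id1 and Id3 did not pass the test against CTRL on any day. Id1 (ENSMUSG00000042745; chromosome 2, 152736251 to 152737410, plus strand) and Id3 (ENSMUSG00000007872; chromosome 4, 136143497 to 136145755, plus strand) encode helix-loop-helix proteins that hold basic helix-loop-helix factors off DNA and are used as readouts of BMP receptor activity. Id1 lay between 58.2 and 119 CPM in CTRL (median 83.7) and had medians between 75.6 and 88.4 CPM on the 6 days. Id3 lay between 121 and 195 CPM in CTRL (median 137) and had medians between 122 and 140 CPM. For both genes every day overlapped with CTRL.

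The interval of the difference sets how large a change could have been missed. On day 14 the log2FC of Id1 was 0.02 with a 95% interval from -0.21 to 0.25, and that of Id3 was -0.04 with an interval from -0.21 to 0.13. The lowest values were on day 35, at -0.24 ± 0.12 for Id1 (p = 0.0404, adjusted p = 0.107 in edgeR) and -0.17 ± 0.09 for Id3 (adjusted p = 0.141). Without day 35 mouse 11 the adjusted p-values were 0.0423 for Id1 and 0.0408 for Id3, and without CTRL mouse 4 that of Id1 was 0.049. Day 42 differed from day 14 by -0.09 ± 0.13 for Id1 and by -0.01 ± 0.10 for Id3, with adjusted p-values of 0.643 and 0.945.

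The extracellular antagonist Grem1 gave the steepest rise of the 10 genes. Grem1 (ENSMUSG00000074934; chromosome 2, 113746164 to 113758646, minus strand) encodes gremlin, a cystine-knot protein that binds BMP2, BMP4 and BMP7 and keeps them from their receptors. Its promoter window is the 1 of the 3 printed above that holds GGCGCC. In CTRL it was near the limit of detection, between 0.307 and 1.28 CPM (median 0.589), which are 3 to 13 counts per library. It lay between 2.19 and 4.51 CPM on day 7 (median 2.98), between 6.07 and 102 on day 14 (median 29.2) and between 5.22 and 154 on day 21 (median 19.8). It lay between 1.44 and 140 CPM on day 28 (median 11.0), between 2.76 and 92.1 on day 35 (median 9.42) and between 2.23 and 33.2 on day 42 (median 5.04). Every BLEO-IPF mouse on every day was above every CTRL mouse, and from day 14 on the mice of a day differed widely.

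The log2FC of Grem1, fitted on group means, was 5.69 ± 0.87 on day 14 (adjusted p = 6.25e-08), or 51.5-fold with a 95% interval from 15.5 to 171. It was 5.95 ± 0.87 (day 21), 5.79 ± 0.87 (day 28) and 4.75 ± 0.87 (day 35), each with an adjusted p of at most 1.65e-05. On day 42 it was 3.67 ± 0.96 (adjusted p = 0.00334). On day 7 it was 2.20 ± 1.00 with an adjusted p of 0.0642 although the groups did not overlap. DESeq2 gave an adjusted p of 0.00279 for day 7, and edgeR on CTRL and day 7 mice alone gave 5.81e-09. The day 7 call thus differed with the tool and with the samples in the fit.

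Single mice weighed on the late values of Grem1. Without day 35 mouse 6 the day 35 log2FC was 4.12, and without day 42 mouse 7, at 33.2 CPM, the day 42 value was 2.77 with an adjusted p of 0.046. From day 14 to day 42 Grem1 fell by 2.02 ± 0.73 on the log2 scale (adjusted p = 0.0253), and without day 42 mouse 7 the difference was -2.90. That call was lost without day 14 mouse 1 (adjusted p = 0.0549) or without day 42 mouse 2, 4 or 5 (0.0563, 0.0579 and 0.0505).

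Bmper (ENSMUSG00000031963; chromosome 9, 23223076 to 23485200, plus strand) encodes a secreted BMP-binding protein of endothelial and mesenchymal cells that can hinder or aid signaling, depending on its dose. It was significantly higher from day 7 to day 28 and at the CTRL level afterwards. It lay between 19.02 and 36.97 CPM in CTRL (median 25.2), between 32.5 and 52.5 on day 7 (median 39.6) and between 26.01 and 144 on day 14 (median 58.9). It lay between 24.6 and 103 CPM on day 21 (median 36.96) and between 19.6 and 89.7 on day 28 (median 34.3). On days 35 and 42 the medians were 26.5 and 26.6 CPM and no mouse exceeded the CTRL range. The number of mice above all CTRL mice was 7 of 10, 10 of 12, 6 of 12 and 4 of 12 from day 7 to day 28.

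The log2FC of Bmper was 0.70 ± 0.25 on day 7 (adjusted p = 0.018) and 1.52 ± 0.24 on day 14 (2.12e-07). It was 0.90 ± 0.24 by day 21 (0.00134) and 0.65 ± 0.24 by day 28 (0.024). The day 28 call was lost without day 28 mouse 1 (0.48, adjusted p = 0.0951) or mouse 5 (0.50, adjusted p = 0.0861). On day 42 it was 0.02 with a 95% interval from -0.53 to 0.58. Bmper fell by 1.496 ± 0.28 on the log2 scale from day 14 to day 42 (adjusted p = 2.75e-05).

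Summed markers of fibroblasts and of myofibroblasts were higher on day 14, as Grem1 and Bmper were, though the single fibroblast markers were split. The 10 fibroblast markers, which include Col1a1 and Col3a1, summed to between 4974 and 5739 CPM in CTRL (median 5459) and to between 7046 and 16636 CPM on day 14 (median 10254), with 5 of the 10 higher and 4 lower. On day 42 the sum was between 4611 and 5587 CPM (median 4970), with 1 higher and 2 lower. Grem1 was still significantly higher on that day and Bmper was not. The 6 myofibroblast markers summed to between 739 and 949 CPM in CTRL and to between 1121 and 2050 CPM on day 14, when 5 were higher. The 5 smooth muscle markers summed to between 604 and 736 CPM in CTRL (median 666). On day 14 that sum lay between 552 and 1173 CPM (median 682), with 3 higher and 2 lower. The 6 macrophage markers summed to between 165 and 187 CPM in CTRL and to between 488 and 1217 CPM on day 14, with 5 higher. The part of these cell types in the levels of Grem1 and Bmper was not tested.

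Levels of different genes were compared per kilobase of merged exons (RPKM). In CTRL the highest was Acvrl1 at 200.001 ± 17.5 RPKM (SD, n = 10), followed by Id3 at 78.5 ± 12.4, Id1 at 73.4 ± 14.2, Bmp6 at 63.3 ± 9.97, Smad6 at 58.8 ± 12.96 and Bmpr2 at 50.97 ± 4.33. Bmp4 was at 29.4 ± 2.16 RPKM, Bmpr1a at 22.2 ± 1.85, Bmper at 5.29 ± 1.10 and Grem1 at 0.163 ± 0.0715. Acvrl1, Id3 and Id1 kept the first 3 places on every day. Bmp6 was in place 4 in CTRL and in place 7 on day 14. Grem1 had a higher mean than Bmper on days 21 (10.3 ± 12.9 against 9.87 ± 5.50 RPKM) and 28 (9.15 ± 12.1 against 8.33 ± 4.88), differences smaller than the spread between mice.

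Ordered by mean log2 CPM over the 7 groups, few neighbours differed by more than the larger of their SDs. For Acvrl1 and Bmpr2 this held only for the step from CTRL to day 42, the next group, at 0.43 and 0.37 on the log2 scale. For Smad6 it held for the step from CTRL to day 7 (0.59), and for Grem1 for the step from day 7 down to CTRL (1.99). For Bmp4 it held for the step from day 42, the highest group, to CTRL (0.16). For Bmp6, Bmpr1a, Id1, Id3 and Bmper it held for 0 of the 6 steps.

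The genes with the most similar patterns were sought among 13133 tested genes by Pearson's r of log2 CPM over the 75 mice, which share groups, so that r follows the differences between days as well as those between mice. Nearest to Acvrl1 were Adgre5 (r = 0.92), Eng (0.91) and Smad6 (0.91), and nearest to Smad6 were Acvrl1 (0.91), Eng (0.89) and Tmcc2 (0.88). Eng encodes endoglin, the endothelial co-receptor that presents ligand to ALK1. Nearest to Bmpr2 were Ptprb (0.90), itself on the endothelial list, Phactr2 (0.89) and Pde3a (0.89). Bmp6 was nearest to Pcolce2 (0.96), Tspan13 (0.94) and Ehd4 (0.94), and Bmp4 to Crip2 (0.82), Etv5 (0.82) and Irx3 (0.815).

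Grem1 was nearest to Mark1 (r = 0.94), Dkk2 (0.94) and Axl (0.93), of which Dkk2 encodes a secreted modulator of Wnt signaling and Axl a receptor tyrosine kinase. Bmper was nearest to Slc20a1 (0.93), a phosphate transporter gene, Slc39a14 (0.92), a zinc transporter gene, and Pi15 (0.91). Bmpr1a was nearest to Mbnl2 (0.85), Cd2ap (0.81) and Map4k5 (0.80). The ID genes were near each other: Id1 to Rras (0.76), Id3 (0.73) and Ctla2a (0.70), and Id3 to Id1 (0.73), Psmb10 (0.70) and Snrpb (0.69).

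Of 53 other genes of the pathway, listed by role, 44 passed the filter. On day 14, 13 were higher and 21 lower, and the remaining 10 did not pass the test. Over all genes tested 32.4% were higher and 29.9% lower on that day, so that the share of the 44 that was higher lay just under the background. The counts were 7 and 21 on day 7, and 12 and 22 a week after day 14. Later they were 10 and 22 (day 28), 4 and 20 (day 35) and 3 and 12 (day 42), beside the shares of all genes given above for each of these days. The number higher was below the share of all genes at each of these times too, though only just on days 21 and 28. The number lower was above the share of all genes on every day, day 14 included. The list was not tested as a set. The median log2FC of the 44 was -0.19 on day 14 and -0.17 on day 42, against 0.01 for all genes tested on each day.

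Gdf6 and Id2 were higher on all 6 days. Gdf6, a ligand of skeletal and eye development, lay between 0.711 and 1.48 CPM in CTRL and between 2.69 and 5.12 CPM on day 14, without overlap, with a log2FC of 1.86 ± 0.25 (adjusted p = 1.9e-09) that was 2.03 on day 42. The CTRL level of Gdf6 rests on 8 to 15 counts per library. Id2, a further ID gene, had a log2FC of 0.42 ± 0.08 on day 14 and 0.49 ± 0.09 on day 42. Genes lower on all 6 days included Eng, Tgfbr3, Rgma and Rgmb among receptors and co-receptors, Smad9 and Smurf2 inside the cell, and Chrdl1 and Twsg1 among secreted modulators. Over all genes tested, 8.33% were higher and 5.31% lower on all 6 days.

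By role, receptors and co-receptors were mostly lower: 1 of 10 was higher and 7 were lower on day 14, and 6 were lower on day 42. The largest falls on day 14 were in Tgfbr3, encoding betaglycan (log2FC -0.98 ± 0.11), and Bmpr1b (-0.85 ± 0.18). The counts by role are small and stand against the same 32.4% and 29.9% of all genes on day 14. On day 42 they stand against 13.7% higher and 11% lower. Of the 6 ligands tested, 1 was higher and 3 lower, led by Gdf6 and by Bmp3 (-1.02 ± 0.14). Of 9 SMADs and intracellular regulators, 2 were higher and 4 lower, with the largest falls in Smad9 (-1.21 ± 0.16), a receptor-activated SMAD, and Smurf2 (-0.53 ± 0.09), a ubiquitin ligase that targets SMADs and receptors.

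The secreted antagonists and modulators went both ways, with 6 of 12 higher and 4 lower on day 14, and 3 lower on day 42. Fst, encoding follistatin, which binds activins and some BMPs, had a log2FC of 3.72 ± 0.56 on day 14 and lay between 3.52 and 11.7 CPM in CTRL and between 14.5 and 232 CPM on day 14. Nog, encoding noggin, had a log2FC of 3.35 ± 0.38 and lay between 0.0928 and 0.692 CPM in CTRL and between 1.72 and 10.3 CPM on day 14. For both genes day 14 did not overlap with CTRL. Nog in CTRL was near the limit of detection, and its lowest value in any library was 1 count. On day 42 Fst and Nog were at 0.56 ± 0.63 and 0.51 ± 0.48, with adjusted p-values of 0.547 and 0.456. Chrdl1, an antagonist of the chordin class, was lower on day 14 at -1.31 ± 0.16. Of 7 targets tested, 3 were higher and 3 lower on day 14, with the largest values in Msx1 (1.11 ± 0.20) and Tmem100 (-0.98 ± 0.22), the latter an endothelial gene under ALK1.

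**Figure D4:**
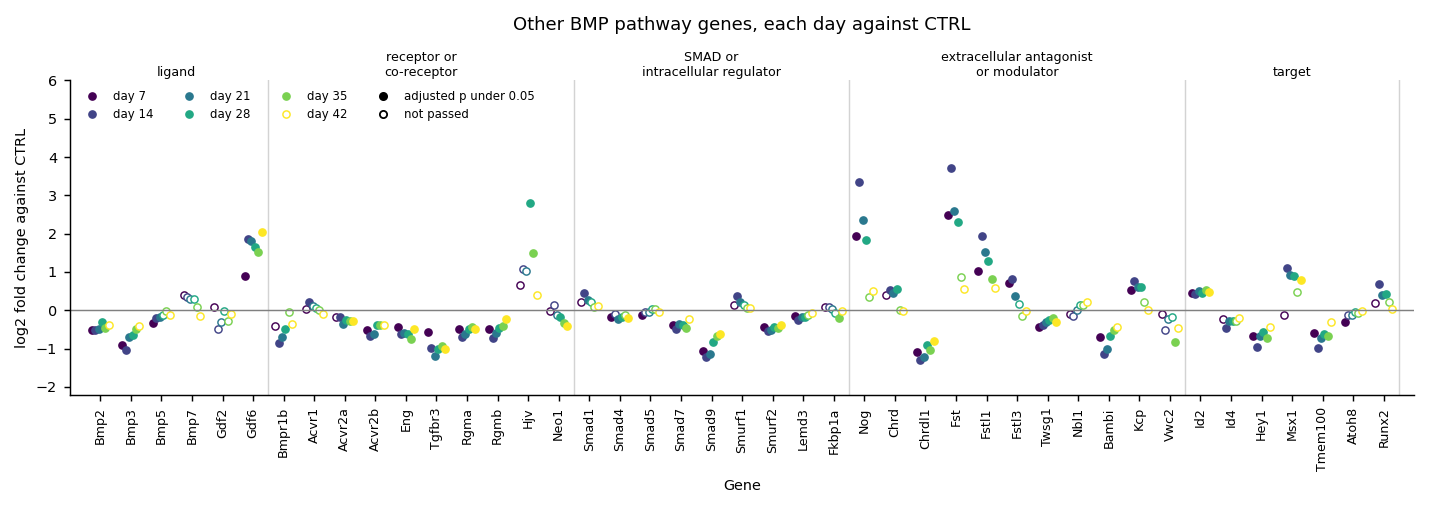
Log2FC against CTRL (vertical axis) of other BMP pathway genes that passed the filter, by role, with 1 point per day (colour) and filled points for an adjusted p under 0.05. Fst (3.72) and Nog (3.35) reach the highest values on day 14, and Eng, Tgfbr3, Rgma and Rgmb lie below 0 with filled points on all 6 days.

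9 listed genes did not pass the filter, namely Bmp8a, Bmp8b, Bmp10, Gdf5, Gdf7, Chrdl2, Sostdc1, Msx2 and Dlx5. Of these, 8 never exceeded 16 counts in a library. Bmp10, a ligand made by the heart atria, had 826 counts in day 28 mouse 10 and otherwise 1 count in 1 mouse. Day 28 mouse 10 was also the mouse with the highest cardiac marker sum, 1576 CPM. Hjv, encoding the co-receptor hemojuvelin of muscle and liver, was named after its values were seen: its day 28 log2FC was 2.81 ± 0.56 (adjusted p = 4.53e-05), and 0.70 ± 0.46 (adjusted p = 0.207) without day 28 mice 8, 10 and 11. Without these 3 mice Hjv passed on day 14 (1.07, adjusted p = 0.0223), on day 21 (1.02, adjusted p = 0.035) and at day 35 (1.49, adjusted p = 0.00346), of which day 35 alone passed with all mice (adjusted p = 0.0429). The median cardiac marker sum was 126 CPM on day 14, 137 on day 21 and 242 on day 35, against 116 in CTRL. Of the 5 cardiac markers, 1 was significantly higher on day 14 and 0 on days 21 and 35. The part of cardiac tissue in these Hjv values was not tested.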

How the data were processed

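RNA-seq of 75 mouse lungs was analysed from the deposited table of raw counts per gene. The authors made these counts from poly A selected libraries, with reads aligned by STAR 2.7.0f to GRCm38 and the Ensembl gene annotation, per the submitters' processing notes and methods. The counting program and its treatment of strand and of reads with several matches are not given in the sources used here. Columns were matched to mice by name, and 0 columns were left out. Within groups, the closest of 375 pairs of mice differed by a chi-square of 3.88 per degree of freedom, so all were kept as separate mice.

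Genes passing edgeR's filter (16221) were scaled by TMM and fitted with 1 mean per group over all mice (edgeR 4.0.16 in R 4.3.3, quasi-likelihood F test), with Benjamini-Hochberg adjustment over all genes and a threshold of 0.05. Steps were tested on simulated data. Alternatives were DESeq2 1.42.0, library size or upper quartile scaling, no filter, only the groups compared, and the replicate number as a block. Leaving out each mouse in turn, and leaving out mice with over 500 CPM of summed cardiac markers, were chosen after seeing the data. CPM take a prior count of 2 on the log2 scale, and RPKM use merged exon length.

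The members and lists were chosen with earlier results of these data known. All 10 members are named, with their 3 nearest genes and, from the pathway list, the 2 called genes per role with the largest day 14 change, those called on all 6 days and those not tested, except for 1 gene that is not reported here. The printed promoters (RefSeq, GRCm38.p6) were chosen after values were seen. A planned comparison of protein sequences was not run. Among the 10 members, depth, at 9240291 to 14665247 counts, limits the precision of Grem1 in CTRL most.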

Additional observations from a re-analysis of the deposited data

Results flagged for a closer look

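Chance puts a mouse far from the others in about 1 in 20 independent sets of values, but the sets here share mice. Of 30 such sets from groups of at most 10 mice, 5 held a mouse far from the others. These were the highest CTRL mouse for Acvrl1 (1025 CPM) and for Id3 (195 CPM), the lowest day 7 mouse for Acvrl1 (388 CPM), the lowest day 42 mouse for Bmpr1a (116 CPM) and the highest day 42 mouse for Grem1 (33.2 CPM).

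The change from CTRL differed between day 42 and day 14, by the edgeR test of day 42 against day 14, for 4 of the 10 genes, 2 higher and 2 lower, where 15.2% of all genes tested were higher and 18.8% lower. The difference on the log2 scale was 0.35 for Bmp4 (adjusted p = 0.00486), 1.05 for Bmp6 (0.000591), -2.02 for Grem1 (0.0253) and -1.496 for Bmper (2.75e-05). Bmp6, Grem1 and Bmper were nearer to CTRL on day 42, and Bmp4 went from -0.19 to 0.16, neither of which passed against CTRL.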

How the results depend on the processing

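Of 420 values of single genes under 6 other ways of processing, 396 kept their direction and their side of the threshold, 18 came to pass, 6 no longer passed and none changed direction. The count of the 10 genes changed on day 42 was 4, and 2 with no filter on low counts. Leaving out 1 mouse at a time it lay between 2 and 4, and it was 2 without day 42 mouse 3, where Bmpr2 and Smad6 no longer passed, or mouse 7, where Acvrl1 and Smad6 did not. Fitted on only the groups compared, 6 of the 10 genes and 23 other pathway genes changed on day 42 (5 higher, 18 lower), against 15. Replicate numbers did not pair the mice: over 204 same-number pairs the median correlation of deviations was 0.0057 (-0.54 to 0.57), and 7 of 75 mice matched their own number best. With the replicate block, 3 of the 10 genes changed on day 42. The shares of all genes given above are from the main fit only. The counts under other processing thus have no share of all genes beside them, and a change in them is not particular to these genes. Grem1 in CTRL rests on 3 to 13 counts per library, near the limit of detection. Its day 7 call also changed with the samples in the fit, as given above, so the precision of its fold changes depends on more than these counts.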
